A study of Mus musculus with 24 samples.

Results

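Mouse embryonic stem cells in which endogenous CTCF had been degraded and replaced by CTCF carrying the substitution R377H, histidine in place of an arginine, were compared with cells rescued in the same way by wild-type CTCF. The comparison takes the 2 libraries of the R377H line and the 2 libraries of the wild-type line under the same treatment, 4 of the 24 total RNA libraries of the study, chosen by their labels and not by any measured value. All cells were E14Tg2a, a 129/Ola stem cell line, or clones of it, grown without feeders on gelatin in serum with leukaemia inhibitory factor, 3 µM CHIR99021 (a GSK3 inhibitor) and 1 µM of the MEK inhibitor PD0325901. Endogenous CTCF is removed through a degron that auxin triggers, and doxycycline switches on a Ctcf transgene.

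Both groups received 500 µM indole-3-acetic acid (IAA, an auxin) and 1 µg/ml doxycycline for 2 days, and are called R377H ID and WT ID. Groups set beside them were R377C ID (cysteine at the same arginine, same treatment, 2 libraries), WT IAA (the wild-type line with IAA and no doxycycline for 2 days, so that CTCF is degraded without rescue, 2 libraries) and the lines of the other 8 substitutions, R377C among them, with the same treatment as R377H ID (16 libraries). WT UN, the untreated wild-type line with 2 libraries, stood in tables normalized separately. Each substitution was one cell line, so a difference of the line and an effect of the substitution cannot be told apart. The labels do not say whether the 2 libraries of a group came from separate cultures. The p-values here measure the spread between libraries of the same group, pooled over the 11 groups of the treated libraries. In RNA from whole cultures, fewer cells of a type and less RNA per cell cannot be told apart.

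CTCF is a DNA-binding protein whose row of zinc fingers reads a long recognition sequence, and it stops the cohesin complex as it extrudes chromatin loops. In this way it sets the borders of topological domains, insulates enhancers from promoters of neighbouring genes, and at imprinted loci binds only the unmethylated parental copy. Short linkers join neighbouring fingers and help to hold them in the DNA groove, and the arginine replaced in R377H lies in such a linker.

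The substituted codon is shown because it gives the R377H line its name. In mm10, Ctcf (ENSMUSG00000005698.15, plus strand of chromosome 8) has this codon at chr8:105670273-105670275, in exon 6 of 12 of a GENCODE M21 transcript that encodes 736 residues. The 93 spliced coding bases around it span an exon junction, and capitals mark the arginine codon of the reference gene. Which codons the transgenes use was not given in the labels.
Ctcf: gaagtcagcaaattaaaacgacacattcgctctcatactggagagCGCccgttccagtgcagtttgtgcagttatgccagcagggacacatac

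Promoters of 4 genes of germ cells and meiosis that rose in R377H ID are shown because 23 of the 32 tested genes of that kind rose and 0 fell (their values follow further on). Each run is the 250 bases before the start site in the RefSeq table of GRCm38.p6, printed in the direction of transcription, with capitals on the first match to a searched motif. The motifs were a CTCF core-like sequence (CCA, AG and GGC, each 2 bases of any kind apart), an E2F6-type sequence (TCCCGC) and an E-box (CACGTG), each searched on both strands of windows of 300 bases, and in the promoters printed no match overlapped another. Capitals mark the E2F6-type letters in Tuba3b (chr6:145615713-145615962, plus strand) and Meioc (chr11:102665335-102665584, plus strand), the E-box in Brdt (chr5:107330944-107331193, plus strand) and the CTCF core-like letters in Asz1 (chr6:18109062-18109311, minus strand).
Tuba3b: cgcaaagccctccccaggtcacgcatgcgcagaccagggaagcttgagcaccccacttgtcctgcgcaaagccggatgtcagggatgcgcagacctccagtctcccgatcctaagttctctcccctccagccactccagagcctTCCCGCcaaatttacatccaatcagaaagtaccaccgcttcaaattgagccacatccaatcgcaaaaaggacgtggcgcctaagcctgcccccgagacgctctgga
Meioc: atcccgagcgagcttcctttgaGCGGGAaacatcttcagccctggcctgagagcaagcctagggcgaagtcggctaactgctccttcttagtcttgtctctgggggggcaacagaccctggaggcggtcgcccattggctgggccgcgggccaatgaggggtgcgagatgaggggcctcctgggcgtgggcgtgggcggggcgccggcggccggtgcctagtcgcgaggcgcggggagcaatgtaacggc
Brdt: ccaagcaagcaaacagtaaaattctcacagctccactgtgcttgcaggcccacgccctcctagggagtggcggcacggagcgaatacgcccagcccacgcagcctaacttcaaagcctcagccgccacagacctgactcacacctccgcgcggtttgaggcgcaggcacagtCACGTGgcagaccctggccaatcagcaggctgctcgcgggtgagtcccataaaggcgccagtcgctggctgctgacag
Asz1: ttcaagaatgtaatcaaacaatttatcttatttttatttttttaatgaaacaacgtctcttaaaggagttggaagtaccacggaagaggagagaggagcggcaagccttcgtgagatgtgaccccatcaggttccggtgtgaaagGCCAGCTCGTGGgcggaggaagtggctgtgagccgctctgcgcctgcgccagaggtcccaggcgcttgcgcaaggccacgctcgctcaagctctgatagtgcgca

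The E2F6-type letters stood in 13 of the 23 promoters of germline genes that rose (56.52%) and in 3 of 10 (30%) of those not called. The shares were 33.24% of 15421 promoters of tested genes and 19.98% of all 32851 promoters in the table. The 23 promoters belong to 21 genes, with Hormad1 and Fkbp6 entered in overlapping windows, and the 10 promoters belong to 8 genes. For the E-box the share was 10 of 23 (43.48%) in the promoters of germline genes that rose, against 9.597% of tested genes' promoters, and 60% of the 10 promoters of germline genes that were not called. The CTCF core-like letters stood in 2 of the 23 (8.696%), against 1 of 10 (10%) in germline genes not called, 2.749% of the tested genes' promoters, 2.636% of promoters of genes called at least 2-fold higher and 2.6% of those called at least 2-fold lower. A match describes the letters in the window and does not show that a factor binds there.

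The 22 libraries of the treated table held 27761749 to 77141117 reads on genes, with 37157305 and 41510163 in R377H ID and 57521611 and 42869348 in WT ID. Levels below are normalized counts (reads divided by a size factor for each library), and log2 fold changes are on the log2(normalized count + 1) scale, given ± SE, with limma's Benjamini-Hochberg adjusted p over 18713 genes. A gene is called, and is said to have risen or fallen, at an adjusted p under 0.05. Ctcf itself, at 10468 and 10645 in R377H ID against 9973 and 10418 in WT ID, was not called (log2 fold change 0.050 ± 0.062, adjusted p = 0.599). Whether transgene reads are counted under Ctcf was not stated and degradation acts on the protein, so this level checks neither the degron nor the substitution.

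Chromosome 11 and the distal end of chromosome 17 stood apart from the other nuclear chromosomes in R377H ID. Of 1375 tested genes on chromosome 11, 856 rose (62.3%) and 15 fell, against 14.4% rising and 10.7% falling among all tested genes. Their median log2 fold change lay 0.54 above the median of all tested genes (1.46-fold). It stood at 0.542 in library 1 and 0.543 in library 2, and 88.9% of the genes lay above 0. In all 28 windows of 4 Mb on the chromosome the median lay between 0.41 and 0.79. Chromosome 11 took 12.2% and 12.4% of the reads in the 2 R377H ID libraries and 8.68% to 11.3% in the 20 other libraries.

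**Figure D1:**
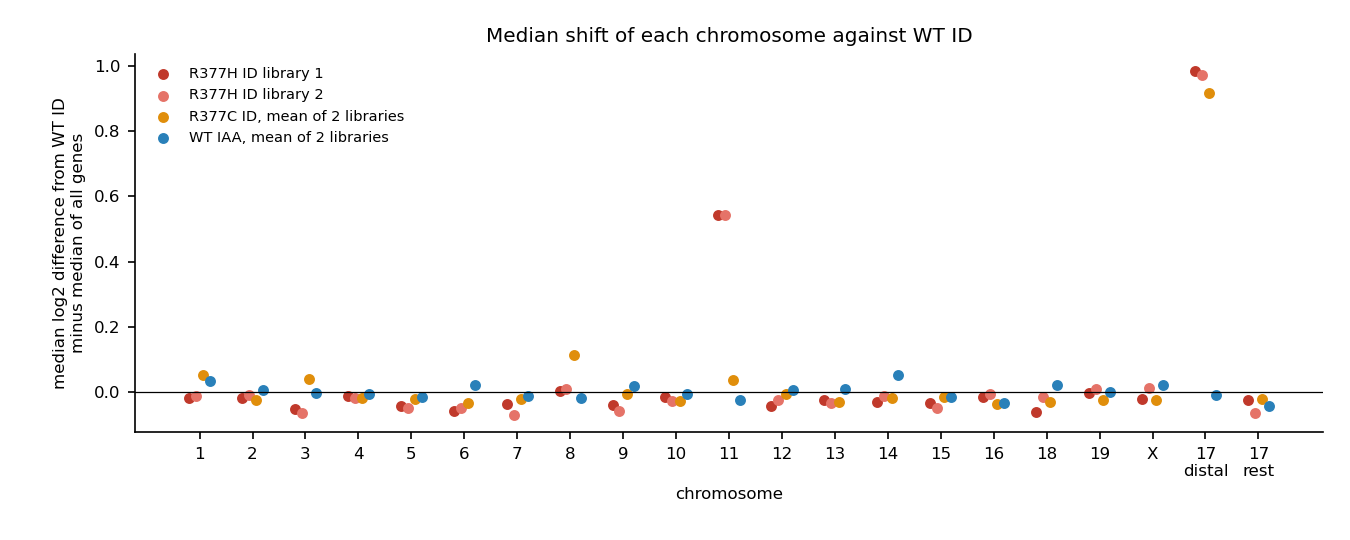
Median log2 difference from WT ID of the genes of each chromosome (y axis, relative to the median of all tested genes) for R377H ID library 1, R377H ID library 2, R377C ID and WT IAA, with chromosome 17 split at the start of its distal segment (x axis). Chromosome 11 stands at 0.54 in both R377H ID libraries and not in R377C ID or WT IAA, while distal chromosome 17 stands near 0.98 in R377H ID and is also raised in R377C ID.

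Distal chromosome 17, from just before Ypel5 (start 72836453) to its end, held 89 tested genes. Of these 71 rose and 0 fell, with a median 0.98 above that of all tested genes. The rest of chromosome 17 stood at −0.032, and chromosomes 1 to 10, 12 to 16, 18, 19 and X lay between −0.058 and 0.0074. The distal segment was as high in 7 other mutant lines (0.92 to 0.96) and not in H455R ID (0.0043) or WT IAA (−0.0074), whereas the gain of chromosome 11 was 0.38 in K365T ID, 0.15 in R448Q ID and −0.011 to 0.091 in the other 6 mutant lines. Within the segment Msh6, a mismatch repair gene, counted 34006 and 39196 in R377H ID against 14981 and 15319 in WT ID (log2 fold change 1.27 ± 0.10, adjusted p = 1.75e-08), and 29148 and 30806 in R377C ID. Eif2ak2, the kinase PKR that senses double-stranded RNA, counted 1718 and 1738 in R377H ID against 749.8 and 861 in WT ID, and 1541 and 1506 in R377C ID. Both genes were chosen after their values were seen, and in both the R377H ID libraries lay above the WT ID libraries. DNA copy number was not measured in these samples, and its part in either segment was not tested.

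**Figure D2:**
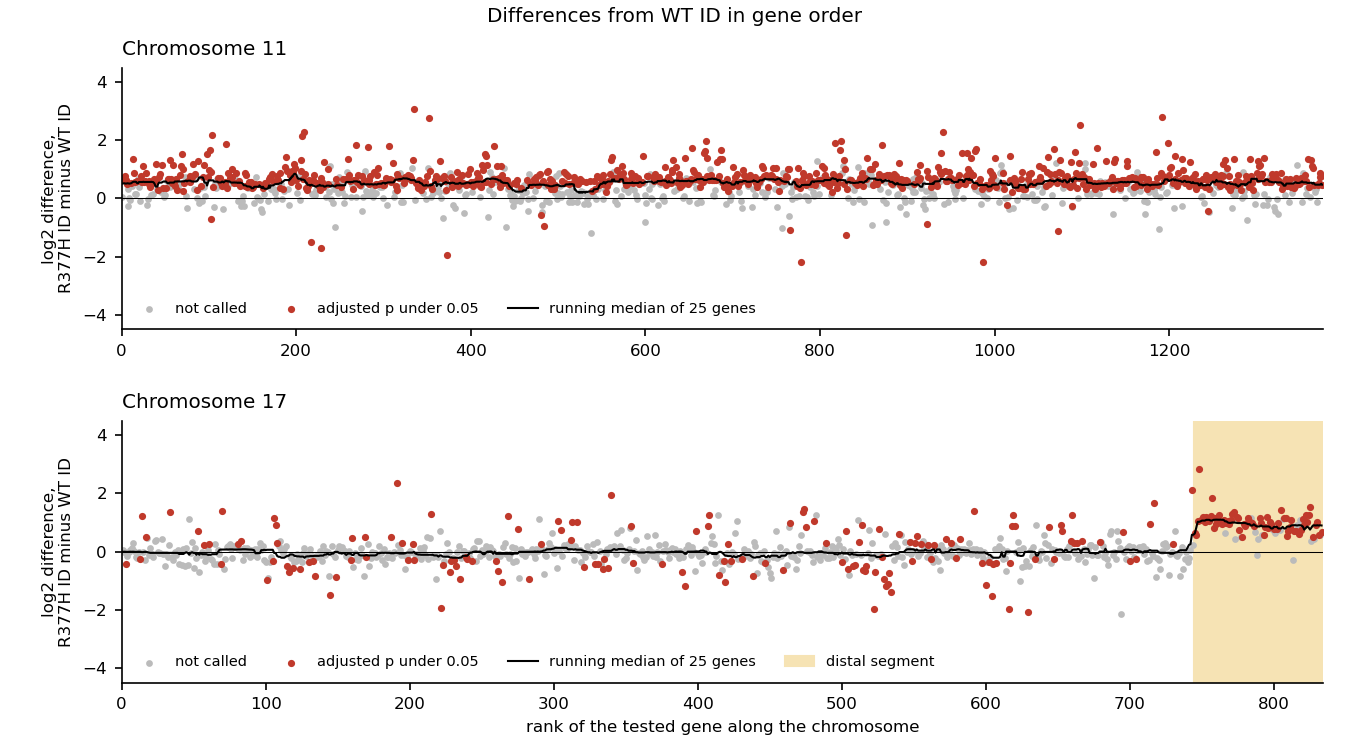
Log2 fold change of R377H ID against WT ID (y axis) for the tested genes of chromosome 11 and of chromosome 17 in gene order (x axis), with the running median of 25 genes as a line and distal chromosome 17 shaded. The raised level runs along the whole of chromosome 11 and starts at the shaded segment of chromosome 17.

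Over all chromosomes 4696 of 18713 genes were called (25.1%), of which 2696 rose (14.4%) and 2000 fell (10.7%). At least 2-fold changes numbered 637 higher (3.4%) and 553 lower (2.96%). The balance depends on the scale. On TPM, which are per length and scaled to the same sum in every library, the test gave 1887 higher and 2788 lower, with the median of all genes at −0.094 on the log2 scale. Among the 17249 genes off both segments 1769 rose (10.3%) and 1985 fell (11.5%). The count of calls was 3016 without R377H ID library 2 and 3071 without WT ID library 1. In 33.6% of tested genes both R377H ID libraries lay above both WT ID libraries, and in 32.6% both lay below.

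The largest increases included a run of neighbouring genes on chromosome 1 (90765923 to 91170795), where Col6a3, Mlph, Rab17, Lrrfip1 and Rbm44 all rose, with a median log2 fold change of 3.01. Mlph, which links Rab27a to myosin on melanosomes (chromosome 1, 90915085 to 90951142), counted 225 and 248 in R377H ID against 12.4 and 16.04 in WT ID (log2 fold change 3.97 ± 0.40, adjusted p = 4.37e-07). Col6a3, a chain of collagen VI (chromosome 1, 90765923 to 90843971), counted 404 and 447 in R377H ID against 24.1 and 34.1 in WT ID (log2 fold change 3.84 ± 0.23, adjusted p = 1.20e-09). Rbm44, an RNA-binding protein gene of germ cells (chromosome 1, 91145089 to 91170795), counted 730.4 and 709 in R377H ID against 87.05 and 89.2 in WT ID (log2 fold change 3.01 ± 0.17, adjusted p = 8.45e-10). Rab17, a small GTPase of epithelial transport, counted 192 and 202 in R377H ID against 24.1 and 32.1 in WT ID. In these genes the R377H ID libraries were close to each other. No overlap with WT ID was part of the rule by which the largest increases were named. The same genes were also above WT ID in R377C ID, at 30.7 and 53.2 for Mlph, 88.3 and 70.6 for Col6a3 and 253 and 314 for Rbm44.

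Several other large increases were of genes known from germ cells. They were named by size, as the 15 largest calls in each direction with a mean of at least 50 and no overlap between the groups. Scml2, a Polycomb protein of the male germ line (chromosome X, 161117193 to 161258213), counted 2234 and 2615 in R377H ID against 257 and 273 in WT ID (log2 fold change 3.18 ± 0.20, adjusted p = 2.22e-09). Usp26, a deubiquitinase gene on the X chromosome, counted 312 and 339.1 in R377H ID against 39.5 and 35.1 in WT ID (log2 fold change 3.09). Nxf3, a testis member of the nuclear RNA export factors, counted 1142 and 899.8 in R377H ID against 116 and 139 in WT ID (log2 fold change 2.99). Tcp11x2 (2.68), also on X, and Nlrp4c (2.62), an oocyte NLR family gene, rose as well. Dppa3, which encodes the maternal factor Stella that shields DNA from methylation changes in early embryos (chromosome 6, 122626410 to 122630272), counted 5782 and 6579 in R377H ID against 966 and 978 in WT ID (log2 fold change 2.67 ± 0.30, adjusted p = 1.74e-06). Outside germ cells, Wdfy4 (3.23), needed for antigen cross-presentation, Fat2 (3.09), an atypical cadherin, Sstr2 (2.81), a somatostatin receptor, and Crygd (2.56), a lens crystallin, rose. Fat2 and Sstr2 lie on chromosome 11 and stood at 2.56 and 2.28 after the median of that chromosome was subtracted.

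**Figure D3:**
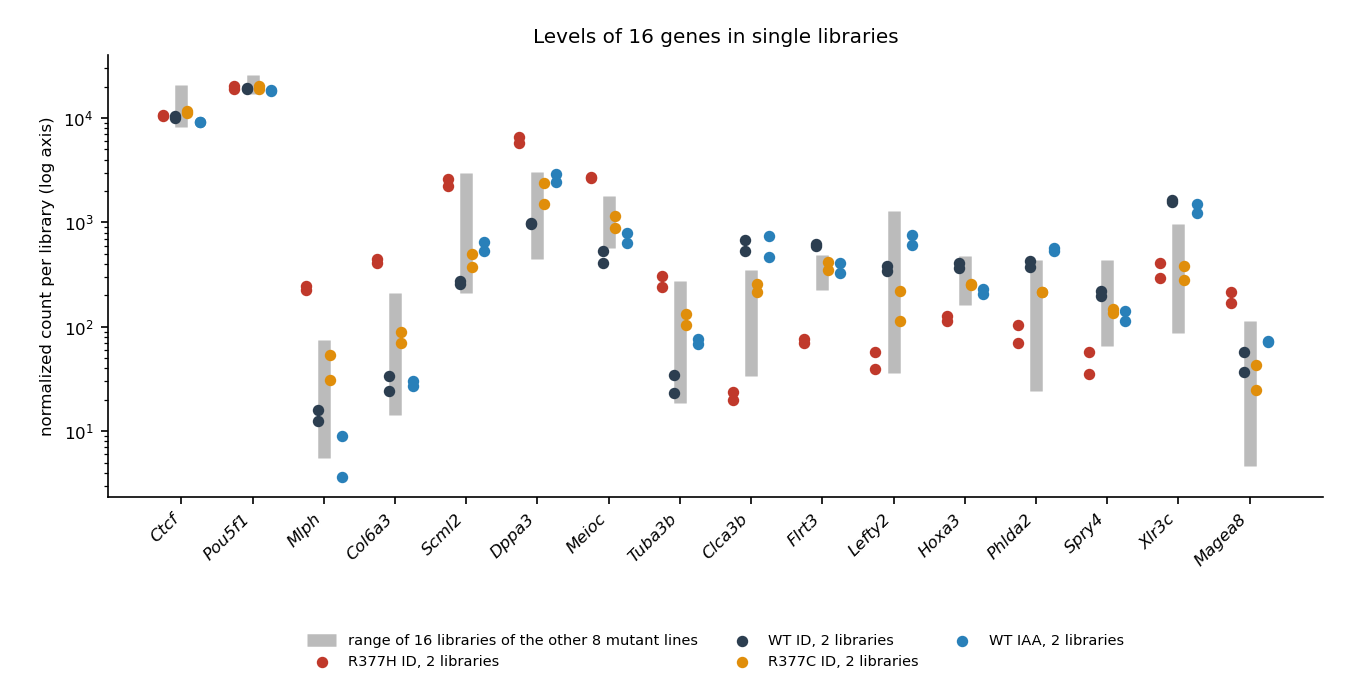
Normalized counts (log axis) of 16 genes in each library of R377H ID, WT ID, R377C ID and WT IAA (points), with the range over the 16 libraries of the other 8 mutant lines as a grey bar. Pou5f1 overlaps between R377H ID and WT ID, and Ctcf, which was not called, lies slightly higher in R377H ID. Mlph, Col6a3 and Dppa3 are highest in R377H ID, and Clca3b and Flrt3 lowest. Scml2 is higher in R377H ID than in WT ID and R377C ID, but its grey bar reaches above the R377H ID points.

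The largest decrease among genes with a mean of at least 50 was that of Clca3b, a member of the chloride channel accessory family (chromosome 3, 144822623 to 144849357), at 20.03 and 23.9 in R377H ID against 685 and 529 in WT ID (log2 fold change −4.72 ± 0.24, adjusted p = 1.70e-10). Nckap5 (chromosome 1, 125913620 to 126830799) counted 3.53 and 5.43 in R377H ID against 113 and 125 in WT ID (log2 fold change −4.48 ± 0.41, adjusted p = 1.63e-07). Pkhd1, which encodes the ciliary protein fibrocystin, counted 7.07 and 8.69 in R377H ID against 163 and 153 in WT ID (log2 fold change −4.17). Flrt3, a membrane protein that binds latrophilins and FGF receptors (chromosome 2, 140650914 to 140671469, inside the region of Macrod2 on the other strand), counted 76.6 and 69.6 in R377H ID against 625 and 591 in WT ID (log2 fold change −3.04 ± 0.15, adjusted p = 1.20e-10). That the libraries of the 2 groups do not overlap in these genes follows from the rule by which they were named.

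Further decreases in that group of 15 included that of Prex2, an exchange factor for Rac, at 955 and 801 in R377H ID against 5633 and 4716 in WT ID (log2 fold change −2.56). Arhgef38 counted 232 and 166 in R377H ID against 1371 and 1222 in WT ID (−2.71). Anxa3, an annexin, counted 16.5 and 23.9 in R377H ID against 105 and 102 in WT ID (−2.32). Also among them were Casq2, the calcium store protein calsequestrin, at −2.47 and Xirp2, an actin-binding protein, at −2.72. Olfr459 (−3.96), Slc44a5 (−3.45) and Vwa3a (−3.01) fell from 146 and 162, 111 and 200.3, and 79.7 and 110 in WT ID to 10.9 or lower in all but 1 R377H ID library, where Slc44a5 stood at 16.5.

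Decreases also came in runs of neighbours. On chromosome 9 (108290429 to 108390205) 8 consecutive tested genes fell, with a median log2 fold change of −0.94, among them Nicn1, Amt, Tcta, Rhoa, Gpx1 and Usp4. Rhoa, the GTPase that drives actomyosin contraction (chromosome 9, 108306129 to 108337934), counted 8462 and 8791 in R377H ID against 19542 and 19442 in WT ID (log2 fold change −1.18 ± 0.069, adjusted p = 8.92e-10). Gpx1, a glutathione peroxidase, counted 5399 and 5738 in R377H ID against 8531 and 8409.6 in WT ID (log2 fold change −0.61 ± 0.089, adjusted p = 3.80e-05). Rhoa stood at 17827 and 18324 in R377C ID, above both R377H ID libraries. These 2 genes and the runs were singled out after their values were seen. Other runs of at least 5 neighbours off chromosome 11 and distal 17 were Apob to Hs1bp3 on chromosome 12 (up, median 1.54), Marveld3 to Cmtr2 on chromosome 8 (up, 1.31), Mdm1 to Gm47024 on chromosome 10 (up, 0.88), Leng9 to Eps8l1 on chromosome 7 (down, −1.32), Slc7a1 to 1810059H22Rik on chromosome 5 (down, −0.71), Chpf to Stk11ip on chromosome 1 (down, −0.68), Rtf1 to Tyro3 on chromosome 2 (up, 0.24) and the Xlr genes on X.

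Germline and meiosis genes, which are silenced in most somatic cells, were largely higher in R377H ID. Of the 32 tested members of the list 23 rose (background 14.4%) and 0 fell (10.7%), with a median log2 fold change of 0.98 against −0.0063 for all tested genes. Summed over the list, TPM were 1492 and 1590.2 in R377H ID against 836 and 804 in WT ID, so both R377H ID libraries lay above both WT ID libraries. Of the 32 tested members 4 lie on chromosome 11 or distal 17. Among the others 19 rose and 0 fell, against 10.3% rising and 11.5% falling among all tested genes off both segments.

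Among the meiotic genes Meioc, which sustains meiotic prophase transcripts (chromosome 11, 102663716 to 102682237), counted 2697 and 2673 in R377H ID against 405 and 534 in WT ID (log2 fold change 2.53 ± 0.17, adjusted p = 3.63e-09), and its log2 fold change was 1.99 after the median of chromosome 11 was subtracted. Tuba3b, a testis alpha-tubulin whose promoter is shown above (chromosome 6, 145615757 to 145621479), counted 238 and 304 in R377H ID against 34.4 and 23.1 in WT ID (log2 fold change 3.21 ± 0.34, adjusted p = 8.63e-07). Meiob, a meiotic recombination protein, counted 53.02 and 45.6 in R377H ID against 9.51 and 8.02 in WT ID (log2 fold change 2.37). Sycp1, the transverse filament of the synaptonemal complex, counted 151 and 173 in R377H ID against 47.5 and 49.1 in WT ID (1.72). In all of these the groups did not overlap, and Tuba3b shares near-identical sequence with Tuba3a (log2 fold change 0.97), so the split of reads between the copies is uncertain. Brdt, a testis bromodomain protein (chromosome 5, 107331159 to 107387058), counted 341.7 and 431 in R377H ID against 116 and 98.3 in WT ID (log2 fold change 1.83 ± 0.14, adjusted p = 2.87e-08). Tex14, needed for the bridges between germ cells, counted 2343 and 2325 in R377H ID against 541 and 649.7 in WT ID (1.98). Brdt and Sycp1 overlap genes on the other strand, and whether counting used strand was not stated.

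Other members that rose were the germ cell RNA-binding proteins Dazl (2942 and 3419 in R377H ID against 1572 and 1139 in WT ID, log2 fold change 1.24) and Ddx4 (0.92), and the gatekeeper of meiotic entry Stra8, at 3609 and 3146 in R377H ID against 1084 and 1971 in WT ID (1.20). The WT ID libraries were far apart in Stra8, and both lay below the R377H ID libraries. Of members known from the piRNA pathway Tdrkh (1.60), Mov10l1 (1.17), Piwil2 (0.60) and Mael (0.56) rose, and Tdrd1 (0.26) and Tdrd9 (0.59) were not called. Also higher were the meiotic cohesin subunits Smc1b (1.10), Rec8 (1.00) and Stag3 (0.78). Asz1, another piRNA gene with its promoter above, counted 18.9 and 18.5 in R377H ID against 4.39 and 5.01 in WT ID (1.79), and its call was lost when any 1 of the 4 libraries was left out (adjusted p up to 0.0796). Members not called included Sycp3 (0.43), Dmc1 (0.31) and Ctcfl, the germ cell paralogue of Ctcf, at 12.96 and 8.69 in R377H ID against 2.93 and 8.02 in WT ID (0.97).

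**Figure D4:**
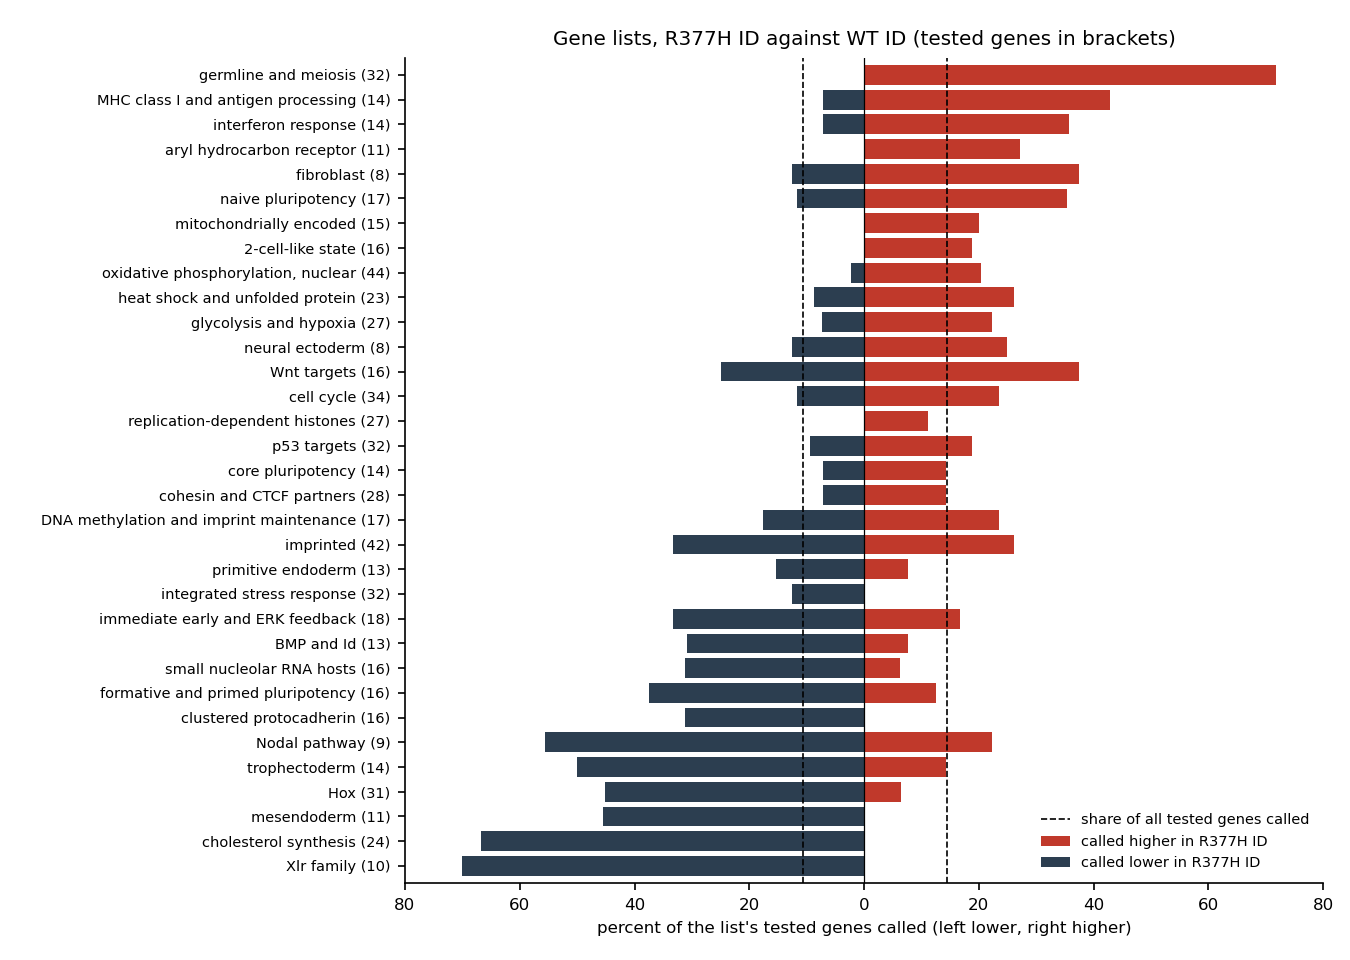
Share of tested members called higher (right) or lower (left) in R377H ID against WT ID for each of the 33 gene lists (percent of members, x axis), with dashed lines at the shares among all tested genes, 14.4% and 10.7%. The germline list has the highest share of increases, and the Xlr and cholesterol lists have the highest shares of decreases.

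Hox genes, which set position along the body axis and are held silent by Polycomb complexes in stem cells, were mostly lower. Of 31 tested members 14 fell (background 10.7%) and 2 rose, with a median of −0.74. In the HoxA cluster on chromosome 6, Hoxa3 (chromosome 6, 52169062 to 52213336) counted 114 and 128 in R377H ID against 408 and 364 in WT ID (log2 fold change −1.66 ± 0.20, adjusted p = 5.24e-06). Hoxa9 counted 23.6 and 20.6 in R377H ID against 108 and 81.2 in WT ID (−2.04). Hoxa2 counted 8.25 and 6.52 in R377H ID against 43.9 and 35.1 in WT ID (−2.27). In HoxD, Hoxd8 counted 118 and 121 in R377H ID against 356 and 246 in WT ID (−1.30). In HoxC, Hoxc6 counted 20.03 and 24.995 in R377H ID against 64.4 and 64.2 in WT ID (−1.48). The R377H ID libraries lay below both WT ID libraries in all of these, and Hoxa3 overlaps antisense transcripts.

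The HoxB cluster lies on chromosome 11, and there Hoxb4 (0.74) and Hoxb7 (0.95) rose while Hoxb8 (−0.90) fell. With each chromosome's median subtracted, and likewise with chromosome 11 left out, the list had 0 members higher and 13 lower. Hoxb7 and Hoxb8 lost their calls without R377H ID library 1, and all 3 lost theirs without WT ID library 2, when the list had 0 members higher and 11 lower. The 4 Mb of chromosome 6 that start at 52 Mb and hold HoxA had the lowest median of the 484 windows off chromosome 11, at −0.63 over 38 genes.

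Imprinted genes changed in both directions, 11 of 42 higher (background 14.4%) and 14 lower (10.7%), with a median of −0.066. At the Kcnq1 domain on chromosome 7, where maternal copies of several genes are expressed and a paternal noncoding RNA, Kcnq1ot1, silences them on the other copy, several protein-coding genes fell. Phlda2, a brake on placental growth (chromosome 7, 143501545 to 143503150), counted 69.5 and 104 in R377H ID against 377.4 and 425 in WT ID (log2 fold change −2.22 ± 0.22, adjusted p = 4.93e-07). Slc22a18, a transporter gene next to it, counted 104 and 80.4 in R377H ID against 247 and 298 in WT ID (log2 fold change −1.56 ± 0.22, adjusted p = 2.00e-05). Kcnq1 itself, a potassium channel gene that Kcnq1ot1 overlaps on the other strand, stood at 1.18 and 1.09 in R377H ID against 10.97 and 13.04 in WT ID (adjusted p = 1.67e-04). Both libraries of R377H ID were below both of WT ID in each.

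Other genes of the domain were named after their values were seen. Cdkn1c, a cyclin-dependent kinase inhibitor, counted 109.6 and 139 in R377H ID against 287 and 258 in WT ID (log2 fold change −1.13). Tspan32 counted 107 and 92.4 in R377H ID against 473 and 420.1 in WT ID (−2.15), below WT ID in both libraries. Cd81 counted 5723 and 6262 in R377H ID against 9993 and 9307 in WT ID (−0.69). Ascl2, a trophoblast transcription factor, counted 45.9 and 47.8 in R377H ID against 204 and 102 in WT ID (−1.60), with a call that was lost without WT ID library 1 (adjusted p = 0.0533). Th, which makes the catecholamine synthesis enzyme, stood at 0 and 2.17 in R377H ID against 26.3 and 22.1 in WT ID. Kcnq1ot1 counted 7522 and 7606 in R377H ID against 5617 and 5376 in WT ID and was not called (log2 fold change 0.46 ± 0.26, adjusted p = 0.216). Nap1l4, at the domain's far side, was level (4437 and 4483 against 4438 and 4540.2).

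In the Dlk1-Dio3 domain on chromosome 12 the maternal noncoding RNAs fell, with Meg3 at 6722 and 3516 in R377H ID against 9365 and 10902 in WT ID (log2 fold change −1.06 ± 0.26, adjusted p = 0.00436). Rian stood at 9116 and 6211 in R377H ID against 13274 and 14461 in WT ID (−0.88). Mirg fell by 1.31 on the log2 scale, and library 2 of R377H ID was the lowest in all of these. Without that library the calls of Meg3 and Mirg were lost, with adjusted p up to 0.145 and 0.0603. Dio3, a paternally expressed deiodinase, fell (101 and 107 in R377H ID against 239.9 and 205 in WT ID, log2 fold change −1.09), while Dlk1, at 57.7 and 59.8 in R377H ID against 34.4 and 25.1 in WT ID, was not called (adjusted p = 0.0814). In the other direction, the paternally expressed gene Mest counted 1373 and 1439 in R377H ID against 407 and 423 in WT ID (log2 fold change 1.76 ± 0.18, adjusted p = 4.74e-07). Snrpn, of the Prader-Willi domain, counted 2865 and 2852 in R377H ID against 1472 and 1524 in WT ID (log2 fold change 0.93 ± 0.087, adjusted p = 2.00e-07). Peg3 (0.63), Mkrn3 (0.97) and Igf2r (0.70) rose too. Commd1 (0.88), Ddc (0.98) and Zrsr1 (0.43) rose and lie on chromosome 11, and with that chromosome left out 7 imprinted genes rose and 13 fell. Without WT ID library 1 the list had 8 higher and 9 lower.

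**Figure D5:**
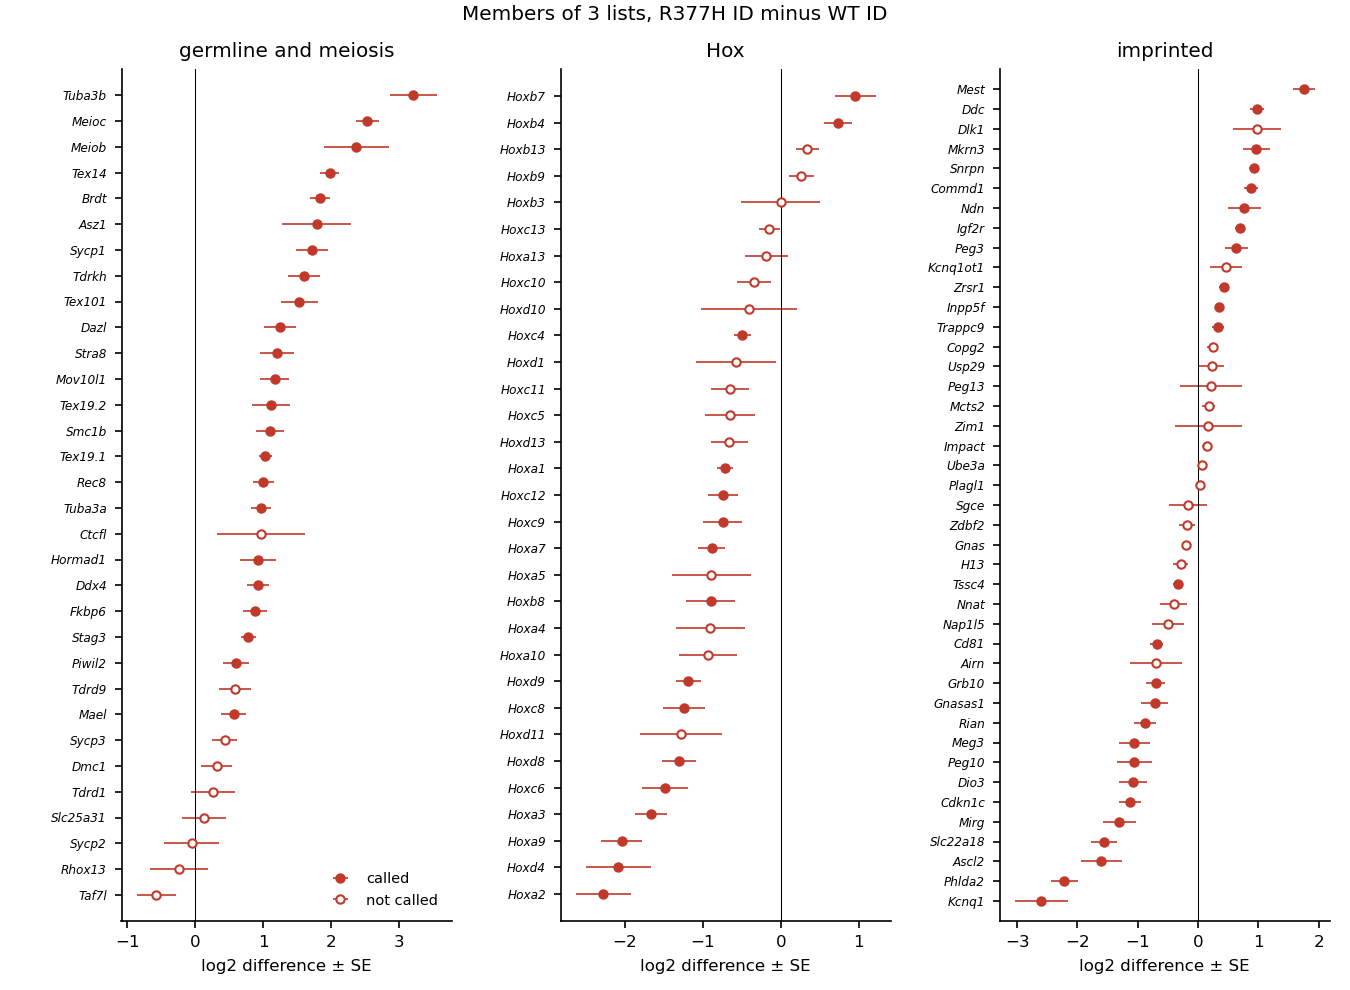
Log2 fold change of R377H ID against WT ID with its SE (x axis) for every tested member of the germline, Hox and imprinted lists, filled where called. Germline members lie to the right of 0 with few exceptions, Hox members mostly to the left, and imprinted members on both sides.

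The Xlr family, clustered X-linked genes related to meiotic chromosome proteins, fell in 7 of 10 members (background 10.7%) with a median of −1.34. Xlr3c (chromosome X, 73254540 to 73265390) counted 296 and 412 in R377H ID against 1644 and 1561 in WT ID (log2 fold change −2.20 ± 0.25, adjusted p = 2.56e-06). Xlr5c counted 17.7 and 27.2 in R377H ID against 159 and 139 in WT ID (−2.71), and Xlr4b counted 165 and 178 in R377H ID against 422 and 380.0 in WT ID (−1.22). The groups did not overlap in these 3 genes. Members not called were Xlr (−0.12), Xlr3a (−0.35) and Xlr4a (−0.27). The copies are near-identical, so the share of reads given to each is uncertain. A run of 13 neighbours on X (73107635 to 73398736), which also holds F8a and Zfp275, fell with a median of −1.46.

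Genes of Nodal signalling and mesendoderm were called lower more often than higher. Of 9 Nodal pathway genes 5 fell (background 10.7%) and 2 rose (14.4%). The feedback antagonist Lefty1 counted 7.07 and 2.17 in R377H ID against 42.4 and 54.1 in WT ID (−3.27). Its neighbour Lefty2 counted 57.7 and 39.1 in R377H ID against 382 and 339.9 in WT ID (log2 fold change −2.90 ± 0.50, adjusted p = 1.96e-04), and both genes were low in both R377H ID libraries. Nodal, the ligand, counted 1684 and 1595 in R377H ID against 2247 and 2351 in WT ID (−0.49, adjusted p = 0.0232). Its call was lost when any 1 library was left out (up to 0.130), while the co-repressor Skil rose (0.46). Of 11 mesendoderm genes 5 fell and 0 rose, among them Eomes, a T-box factor (62.4 and 79.3 in R377H ID against 181 and 154 in WT ID, log2 fold change −1.24), and Cdx1 (3213 and 3447 in R377H ID against 5212 and 5666 in WT ID, −0.71). Lefty1 and Lefty2 belong to both the Nodal and mesendoderm lists, and Eomes is also on the trophectoderm list, so these counts are not separate. Leaving out R377H ID library 1 gave 3 Nodal pathway genes lower and 1 higher, leaving out R377H ID library 2 or WT ID library 1 gave 4 lower and 1 higher, and leaving out WT ID library 2 gave 2 lower and 2 higher. The mesendoderm list had 1 member higher and 5 lower without R377H ID library 1.

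Immediate early genes and feedback genes of the ERK pathway, which PD0325901 blocks in these cultures, were taken as a single list. Of its 18 tested members 6 fell (background 10.7%) and 3 rose (14.4%). Spry4, an inhibitor of receptor tyrosine kinase signalling (chromosome 18, 38586247 to 38601415), counted 35.3 and 57.6 in R377H ID against 221 and 199 in WT ID (log2 fold change −2.19 ± 0.24, adjusted p = 1.27e-06). Dusp6, the ERK phosphatase, counted 160.2 and 155 in R377H ID against 551 and 472 in WT ID (log2 fold change −1.69 ± 0.15, adjusted p = 9.28e-08). Etv4, an ETS factor induced by ERK, counted 915 and 1030.2 in R377H ID against 2244 and 2039 in WT ID (−1.14), although it lies on chromosome 11. In all 3 genes both R377H ID libraries were lower. Dusp5 rose (1.02), and without R377H ID library 1 the list had 3 members higher and 3 lower.

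Trophectoderm genes fell in 7 of 14 (background 10.7%) and rose in 2 (14.4%), with a median of −0.61. Cdx2, a regulator of trophoblast fate, counted 8.25 and 5.43 in R377H ID against 40.2 and 45.1 in WT ID (−2.50). Tfap2a, another factor of that lineage, counted 575 and 627 in R377H ID against 1609 and 1122 in WT ID (log2 fold change −1.16 ± 0.16, adjusted p = 1.80e-05). Krt7 rose (1.04, adjusted p = 0.0324), with a call lost without any 1 of the libraries (up to 0.213) and on the TPM scale. With 1 library left out the trophectoderm list had 0 members higher and 5 to 8 lower. BMP genes fell in 4 of 13 (background 10.7%), with Bmp4, a ligand, at 158 and 181 in R377H ID against 421 and 332 in WT ID (−1.14). Id4, a target, stood at 534 and 542 in R377H ID against 979 and 984 in WT ID (−0.87), Msx2 fell as well (−0.72), and Smad9 rose (1.21).

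Pou5f1, which encodes Oct4, counted 18840.5 and 20369 in R377H ID against 19161 and 19246 in WT ID (log2 fold change 0.029). Sox2 counted 17033 and 17607 in R377H ID against 16551 and 16642 in WT ID (0.061). Neither was called (adjusted p = 0.830 and 0.611), and the sign of both was negative on the TPM scale. Nanog rose, at 44718 and 48406 in R377H ID against 35872 and 36562 in WT ID (log2 fold change 0.36 ± 0.083, adjusted p = 0.00300), but was not called on the TPM scale or after quantile normalization. The RNA-binding protein gene Lin28a fell, at 1186 and 980.2 in R377H ID against 2279 and 2717 in WT ID (log2 fold change −1.21 ± 0.13, adjusted p = 1.42e-06). Over the 14 core pluripotency genes 2 rose (background 14.4%) and 1 fell (10.7%), with other counts by setting (0 and 1 on the TPM scale, 1 and 1 without R377H ID library 2 or WT ID library 1).

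Of 17 naive pluripotency genes 6 rose (background 14.4%) and 2 fell (10.7%), and on the TPM scale 4 rose and 4 fell. The 2 decreases were not called without R377H ID library 1 or without WT ID library 1, and 1 of them held without WT ID library 2. Dppa3, given above, changed most, and Prdm14, a repressor of DNA methyltransferases, counted 1654 and 1537 in R377H ID against 1148 and 1231 in WT ID (0.42). Spic, an ETS factor, counted 2308 and 1849 in R377H ID against 1169.7 and 1130.0 in WT ID (0.84). Formative genes fell in 6 of 16 (background 10.7%), among them Otx2 (96.6 and 65.2 in R377H ID against 198 and 203 in WT ID, −1.32). The epithelial regulator Grhl2 rose (1179 and 1206 in R377H ID against 266 and 199.5 in WT ID, log2 fold change 2.37). The list had 2 members higher, and 1 on the TPM scale, without R377H ID library 2 or without WT ID library 2. The DNA methyltransferase cofactor Dnmt3l fell (1033 and 998 in R377H ID against 2539 and 1998 in WT ID, −1.15), as did Dnmt3b (−0.44). In these genes the R377H ID and WT ID libraries did not overlap. Over the 17 genes of DNA methylation and imprint maintenance, 4 rose (background 14.4%) and 3 fell (10.7%), or 1 and 5 on the TPM scale. Of 16 genes of the 2-cell-like state 3 rose (background 14.4%), all at low counts in WT ID, and 0 of these calls held without R377H ID library 2 or without WT ID library 2.

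Cholesterol synthesis genes fell in 16 of 24 members (background 10.7%) and rose in 0, by small amounts, with a median of −0.34. Msmo1, a sterol oxidase, counted 2353 and 2330.0 in R377H ID against 4125 and 3575 in WT ID (log2 fold change −0.71 ± 0.079, adjusted p = 1.41e-06). Cyp51, a demethylase of the same pathway, counted 2979 and 3018 in R377H ID against 4968 and 4341 in WT ID (−0.63). Hmgcs1, which starts the pathway, counted 6781 and 6756 in R377H ID against 10000.2 and 9378 in WT ID (−0.52). Every one of these R377H ID values lay below both WT ID values. The number that fell was 8 without R377H ID library 2 and 9 without WT ID library 1.

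Genes of the mitochondrial genome had a median of 0.64, with 3 of 15 called higher (background 14.4%). Mitochondrial reads made up 2.89% and 2.34% of the R377H ID libraries against 1.62% and 1.92% in WT ID. Without R377H ID library 1, and likewise without WT ID library 1, 0 of these calls held. Nuclear genes of oxidative phosphorylation rose in 9 of 44 (background 14.4%) and fell in 1 (5 and 4 on the TPM scale). Of those that changed most Atp5h (0.71), Uqcrq (0.64) and Atp5g1 (0.63) lie on chromosome 11 and stood at 0.18, 0.11 and 0.10 after its median was subtracted. Without R377H ID library 2 or WT ID library 1 the increases numbered 4, without WT ID library 2 they numbered 5, and the decrease was not called when any 1 of the 4 libraries was left out.

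In glycolysis and hypoxia genes 6 of 27 rose (background 14.4%) and 2 fell (10.7%), or 3 and 2 on the TPM scale and with chromosome 11 left out. Pdk1, the kinase that shuts pyruvate out of mitochondria, counted 861 and 751 in R377H ID against 1828 and 1996 in WT ID (log2 fold change −1.25 ± 0.091, adjusted p = 1.13e-08). Slc16a3, a lactate exporter, stood at 815 and 323 in R377H ID against 235 and 174 in WT ID, so its R377H ID libraries differed from each other, and its call was lost without library 1 (adjusted p = 0.0505). Without R377H ID library 1 the list had 1 member higher and 3 lower, without R377H ID library 2 or WT ID library 1 it had 4 and 1, and without WT ID library 2 it had 3 and 2.

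Of 32 integrated stress response genes 4 fell (background 10.7%) and 0 rose (14.4%), and without WT ID library 1 3 fell and 1 rose. The mitochondrial enzyme Pck2 stood at 5086 and 5247 in R377H ID against 8892 and 8200.1 in WT ID (−0.72). Cth, which makes cysteine, stood at 3030.1 and 3077 in R377H ID against 5709 and 4671 in WT ID (−0.76). Of 32 p53 targets 6 rose (background 14.4%) and 3 fell (10.7%), near the shares of all genes (6 and 6 on the TPM scale), with Rrm2b at 849 and 779 in R377H ID against 426 and 459 in WT ID (0.88), while Cdkn1a (−0.15) and Mdm2 (0.21) were not called. The 3 decreases among p53 targets were not called without R377H ID library 1 or without WT ID library 1. Trp53 itself, on chromosome 11, rose (16569 and 17156 in R377H ID against 10166 and 10192 in WT ID, 0.73) and stood at 0.20, with no call, after that chromosome's median was subtracted. The heat shock genes Hspb1 (5537 and 6029 in R377H ID against 10528 and 10070.1 in WT ID, −0.83) and Hsph1 (−0.49) fell, and over that list 6 of 23 rose (background 14.4%) and 2 fell (10.7%), with other counts by setting (2 and 3 on the TPM scale, 1 and 3 without R377H ID library 2, 1 and 2 without WT ID library 1, 3 and 2 without WT ID library 2).

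Cell cycle genes were called in 12 of 34, 8 higher (background 14.4%) and 4 lower (10.7%), or 6 and 8 on the TPM scale. Ccnd1, cyclin D1, counted 1704 and 1945 in R377H ID against 756 and 793 in WT ID (log2 fold change 1.23 ± 0.10, adjusted p = 2.28e-08). Cdkn2a, the locus of the p16 and Arf inhibitors, counted 328 and 342.3 in R377H ID against 162 and 108 in WT ID (log2 fold change 1.33 ± 0.28, adjusted p = 0.00146). Cdc25b fell (1789.6 and 1963 in R377H ID against 2845 and 2557 in WT ID, −0.52). Ccnd1 and Cdkn2a kept their calls when each of the 4 libraries was left out in turn (adjusted p up to 2.68e-06 and 0.0379). The list had 5 higher and 4 lower with chromosome 11 left out, and 2 lower without R377H ID library 1 or without either WT ID library. Of 16 Wnt targets 6 rose (background 14.4%) and 4 fell (10.7%), with other counts when 1 library was left out (5 and 2 without R377H ID library 2, 6 and 2 without WT ID library 1), and with chromosome 11 left out 2 rose and 2 fell, of which Nkd1 (0.82) rose and the transcription factor Sp5 (−1.03, lost without R377H ID library 2) fell.

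Antigen presentation genes rose in 6 of 14 (background 14.4%) and fell in 1, with a median of 0.63. Their summed TPM overlapped between the groups, at 187 and 179 in R377H ID against 198 and 178 in WT ID. Against the other 8 mutant lines 1 of the 14 was higher (background 17.2%) and 1 lower (13.4%). H2-K1, a classical class I heavy chain, counted 1261 and 1061 in R377H ID against 688 and 732 in WT ID (log2 fold change 0.70 ± 0.13, adjusted p = 3.80e-04). H2-Q7 counted 132 and 147 in R377H ID against 43.2 and 56.2 in WT ID (1.48), and H2-Q4 counted 89.5 and 68.5 in R377H ID against 28.5 and 31.1 in WT ID (1.37). The groups did not overlap in these genes, which lie on chromosome 17 before the distal segment and share sequence with each other. Of 14 interferon response genes 5 rose (background 14.4%) and 1 fell, among them Ifitm1 (7375 and 6987 in R377H ID against 4673 and 5312 in WT ID, 0.53) and Oas1e (1.42), with Ddx58, the RNA sensor RIG-I, lower (−0.69). The interferon list had 3 higher and 2 lower on the TPM scale, 3 and 1 without R377H ID library 2 or WT ID library 2, and 2 and 1 without WT ID library 1.

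Transcripts of proteins that work with CTCF were also tested. Rad21 (15703 and 17464 in R377H ID against 15665 and 16629.7 in WT ID, log2 fold change 0.037), Smc3 (0.079), Smc1a (0.10) and Stag2 (−0.052), subunits of cohesin, were not called, and Rad21 and Smc3 were below 0 on the TPM scale. Of 28 cohesin and CTCF partner genes 4 rose (background 14.4%) and 2 fell (10.7%), near the shares of all genes (4 and 5 on the TPM scale), and 1 fell without R377H ID library 1 or without either WT ID library. All 4 that rose, Bptf, Npm1, Patz1 and Vezf1, lie on chromosome 11, and none of the 4 was called after its median was subtracted. Top2b, a topoisomerase found at loop anchors, fell (2835 and 3056 in R377H ID against 3764 and 3769 in WT ID, −0.36).

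Clustered protocadherins, cell adhesion genes whose promoters CTCF is known to bind, fell in 5 of 16 tested (background 10.7%) and rose in 0, with a median of −0.88. Pcdhga12 counted 56.5 and 54.3 in R377H ID against 130.2 and 109 in WT ID (log2 fold change −1.09 ± 0.23, adjusted p = 0.00153). Counts were low and the members share 3' exons, and 2 of the 16 were called without R377H ID library 2 or WT ID library 1.

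Within chromosome 11 some genes moved far beyond the shared shift. Tbx21, the T-box factor of type 1 helper T cells (chromosome 11, 97098071 to 97115331), counted 682 and 788 in R377H ID against 159 and 142 in WT ID (log2 fold change 2.28 ± 0.23, adjusted p = 3.83e-07), and 1.75 after the chromosome's median was subtracted. Slit3, an axon guidance ligand, counted 549 and 563 in R377H ID against 98.8 and 130.4 in WT ID (2.28). Dock2, a Rac activator of blood cells, counted 219 and 199 in R377H ID against 49.7 and 43.1 in WT ID (2.15). In the other direction Ebf1, a B cell regulator, counted 27.1 and 24.995 in R377H ID against 91.4 and 83.2 in WT ID (−1.71). Ntn1, the guidance cue netrin, counted 801 and 898 in R377H ID against 1977 and 1379 in WT ID (−0.96). These genes were named by size under a rule that required no overlap between the groups. The promoter of Tbx21 (chr11:97115332-97115581, minus strand) is printed because it holds the CTCF core-like letters, here in capitals.
Tbx21: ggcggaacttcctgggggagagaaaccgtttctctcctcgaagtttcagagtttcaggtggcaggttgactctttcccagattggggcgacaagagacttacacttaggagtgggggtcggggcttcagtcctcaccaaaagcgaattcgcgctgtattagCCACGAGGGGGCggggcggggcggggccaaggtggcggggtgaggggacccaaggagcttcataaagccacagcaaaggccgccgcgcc

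R377C ID, the other substitution of the same arginine, differed from R377H ID in 3552 of 18713 genes (19.0%), 2078 higher and 1474 lower in R377H ID. The TPM scale gave 1174 higher and 2118 lower, chromosome 11 left out gave 1148 and 1315, and the count was 1862 without R377H ID library 2 and 1856 without R377C ID library 1. Chromosome 11 separated the lines, with a relative median of 0.50 between them, whereas distal chromosome 17 did not (0.038). Against WT ID, 1514 genes were called in R377C ID (8.09%), 4.67% higher and 3.43% lower, and 4696 in R377H ID (25.1%), in comparisons that share the WT ID libraries.

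Among the largest differences between the lines were those of Clca3b and Scml2. Clca3b counted 255 and 214 in R377C ID, between R377H ID (20.03 and 23.9) and WT ID (685 and 529), and R377H ID was lower than R377C ID (log2 fold change −3.36 ± 0.24, adjusted p = 4.40e-08). Scml2, at 370.4 and 495 in R377C ID, was higher in R377H ID (log2 fold change 2.49 ± 0.20, adjusted p = 1.30e-07). Also higher were Mlph (2.52), Slc5a4b (22.4 and 37.8 in R377C ID and 211 and 221 in R377H ID) and Magea8 (24.9 and 42.96 and 168 and 217). Peg10, an imprinted gene derived from a retrotransposon, counted 3716 and 1990.3 in R377C ID, 441 and 328 in R377H ID and 920.2 and 681 in WT ID, so that the lines lay on opposite sides of WT ID (difference −2.84 ± 0.29, adjusted p = 1.21e-06). The decrease of Peg10 against WT ID was not called without R377H ID library 2 or without WT ID library 1.

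Gene groups also differed between the 2 substitutions. Hox genes were lower in R377H ID than in R377C ID in 17 of 31 (background 7.88%) and higher in 0, and in R377C ID 1 of 31 rose against WT ID and 0 fell. Germline genes were higher in R377H ID in 12 of 32 (background 11.1%) and lower in 2, and in R377C ID 15 rose against WT ID and 0 fell. Xlr genes were higher in R377H ID in 4 of 10, and in R377C ID 9 of 10 fell against WT ID. Brdt (466 and 461 in R377C ID, difference −0.27 ± 0.14, adjusted p = 0.212) and Xlr3c (279.5 and 379, difference 0.10 ± 0.25, adjusted p = 0.833) overlapped between the lines or did not differ by this test, which does not show that they are alike.

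WT IAA, with CTCF degraded and not replaced, differed from R377H ID in 6926 genes (37.0%), 3837 higher and 3089 lower in R377H ID, or 2682 and 4256 on the TPM scale and 2897 and 2993 with chromosome 11 left out. The integrated stress response list separated them, with 27 of 32 members higher in R377H ID (background 20.5%) and 0 lower. Against WT ID, 3868 genes were called in WT IAA (20.7%), 10.7% lower, and 28 of the 32 stress genes fell there, beside 4 in R377H ID. Both of these comparisons share the WT ID libraries. WT IAA also lacked the doxycycline that R377H ID and WT ID received. A difference due to the drug and one due to CTCF cannot be told apart here.

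Several genes called in R377H ID against WT ID were not called, or fell, in WT IAA. Clca3b counted 736 and 462 in WT IAA against 685 and 529 in WT ID (log2 fold change −0.046, adjusted p = 0.926). Col6a3 counted 26.8 and 30.5 (−0.0053, adjusted p = 0.991). Mlph, higher in R377H ID, fell in WT IAA (8.94 and 3.66, −1.15, adjusted p = 0.0453). Xlr3c stood at 1499 and 1233, near WT ID (−0.24). Others rose or fell in both, such as Dppa3 (2418 and 2906 in WT IAA, 1.45), Meioc (642 and 798, 0.62), Grhl2 (534 and 517, 1.19), Flrt3 (405 and 326, −0.74) and Hoxa3 (231 and 207, −0.82). For each of these 5 genes the R377H ID libraries lay further from WT ID than the WT IAA libraries did. The 5 were named by the size of their change in R377H ID, so this order partly follows from the choice.

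Against the mean of the other 8 mutant lines, 5732 genes differed in R377H ID (30.6%), 3226 higher and 2506 lower, or 2104 and 3206 on the TPM scale and 2258 and 2397 with chromosome 11 left out. The count was 3574 without R377H ID library 1 and 2991 without library 2. Meioc, Dppa3, Nxf3, Grhl2 and Crygd were higher in both R377H ID libraries than in any of the 16 libraries of the other lines. The genes given here were named by the size of their change, so such separation partly follows from the choice. The share of all tested genes beyond all 16 libraries was not counted. The lowest, median and highest of those 16 were 566, 1011 and 1787 for Meioc, 450.1, 2169.6 and 3017 for Dppa3 and 93.7, 200.4 and 865 for Nxf3. Mlph (5.54, 35.96 and 74.2), Col6a3 (14.1, 72.2 and 210.0), Tbx21 (40.5, 146 and 402) and Miip (21.3, 78.6 and 210.2, with 447.7 and 469 in R377H ID) were likewise above all 16. Meioc and Tbx21 lie on chromosome 11, whose relative median log2 difference from the other 8 lines was 0.44. The counts given here include that shift.

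Clca3b (34.05, 229.6 and 352), Flrt3 (228, 393 and 484), Anxa3 (40.05, 119 and 311), Hoxa3 (162, 257 and 476) and Spry4 (65.2, 137 and 437) were below all 16 in both R377H ID libraries. These decreases too were named by size, with the same limit. Scml2 was exceeded in 2 of the 16, which reached 2957, and Phlda2 was lower in 2 of the 16. For Brdt 7 of the 16 were above both R377H ID libraries and 6 below, and for Xlr3c 4 were above and 10 below. In the untreated wild-type line, on the TPM scale of tables normalized separately, Dppa3 stood at 11.3 and 9.49 against a mean of 81.8 in WT ID and 489 in R377H ID. Clca3b stood there at 15.1 and 8.98 against 13.6 and 0.461.

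Markers of other cell types are given beside the background of 14.4% higher and 10.7% lower. Of 13 primitive endoderm genes 1 rose, Gata4 (389 and 422 in R377H ID against 252 and 249.7 in WT ID, 0.69), and 2 fell, with Dab2 at 58.9 and 80.4 in R377H ID against 336 and 213 in WT ID (−1.94). The defining factors Gata6 (0.24) and Sox17 (−0.66) were not called. The list had 1 lower without R377H ID library 2 or WT ID library 2. Of 8 fibroblast genes 3 rose and 1 fell. Acta2, smooth muscle actin, counted 1.18 and 0 in R377H ID against 27.8 and 38.1 in WT ID. Col5a1, a collagen chain, counted 2419 and 2664 in R377H ID against 1576 and 1451 in WT ID (0.75). Of 3 fibroblast genes that rose, 1 was called without R377H ID library 2 or WT ID library 2. Of 8 neural genes 2 rose and 1 fell (1 and 0 without R377H ID library 1 or WT ID library 1, 0 and 1 without R377H ID library 2), with Pax6 (−0.31) not called. Summed TPM of the fibroblast list were 905 and 973 in R377H ID against 1038 and 963 in WT ID, and of the primitive endoderm list 563 and 593 in R377H ID against 689.9 and 631 in WT ID. Their part in the other results was not tested.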

How the data were processed

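Total RNA libraries were made from 24 samples with Illumina Stranded Total RNA Prep with Ribo-Zero Plus and sequenced in paired reads, per the labels' protocols. Trim Galore, STAR, DESeq2 and mm10 are named in the submitters' processing notes, and for versions, read counter, gene annotation and use of strand the sources used here give nothing. The authors deposited counts divided by a size factor for each library (a signal scale, "normalized counts") and TPM, in separate tables for the 22 treated and the 2 untreated libraries. Dividing the deposited values by the worth of 1 read gave whole reads for 100% of values (tolerance 0.001), and those reads matched the size factors that DESeq2's median-ratio method gives.

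The main test, two-sided, was that of limma 3.58.1 (lmFit, then eBayes with its trend option, under R 4.3.3) on log2(normalized count + 1). It covered the 18713 genes whose mean reached 10 across 22 libraries, with 11 groups of 2 and 11 residual degrees of freedom, Benjamini-Hochberg adjusted. edgeR 4.0.16 and DESeq2 1.42.0 were run on the recovered reads as alternatives, beside TPM + 0.1, quantile normalization, other filters and pseudocounts, a replicate block, chromosome-centred values and each library left out. Where a library was left out, its lone partner was assumed to vary like the other groups. Coordinates are those of GENCODE M21 (mm10), in which 53186 of 55291 gene names were found once. Promoters came from RefSeq (GRCm38.p6) and matched 12170 of the tested genes. Of 752 genes in 33 lists, 747 matched. The members of the comparison, the lists and the naming rule (the 15 largest calls in each direction with a mean of at least 50 and no overlap, up to 6 called genes of each list, and the largest differences from the other lines) were chosen with earlier results of these data known. Scripts were tested on simulated data.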

Additional observations from a re-analysis of the deposited data

How the results depend on the processing

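Against WT ID, 4696 genes were called, 4747 with a replicate block (the numbers do not pair the samples, since the deviations of R377H ID and WT ID correlated at −0.084), and 3016 to 3509 with 1 library left out. The ranges with 1 library left out were 1856 to 2655 against R377C ID, 4944 to 5308 against WT IAA and 2991 to 3574 against the other 8 mutant lines. The other settings kept each of these 4 counts within 1.5 times, but TPM, and leaving out chromosome 11, turned the balance toward lower calls in all 4. The chromosome 11 median was 0.5342 with TPM, 0.5335 with quantile normalization, 0.5371 with no filter, 0.5405 with a mean of at least 50, 0.5315 with pseudocount 5, 0.5379 to 0.5448 with 1 library left out and 0.0075 after centring each chromosome, by construction. Of 217 results for named genes 166 kept their call and direction in every setting with all libraries, and 128 in every setting. Calls lost numbered 25 with TPM, 23 with no filter, 12 with quantile normalization, 11 after centring, 3 with edgeR, 4 with DESeq2, and 36, 55, 46 and 41 without R377H ID library 1, R377H ID library 2, WT ID library 1 and WT ID library 2. Direction reversed with TPM for Ctcf (−0.0402), Pou5f1 (−0.0619), Rad21 (−0.0536), Smc3 (−0.0118) and Sox2 (−0.0293), with quantile normalization for Pou5f1 (−0.0552) and Rad21 (−0.0133), after centring for Irf1 (−0.2487) and Patz1 (−0.0260), without R377H ID library 2 for Pou5f1 (−0.0275) and Rad21 (−0.0396), and without WT ID library 1 for Rad21 (−0.0060). With 1 library left out Pou5f1 ranged from −0.0275 to 0.085 and Rad21 from −0.0396 to 0.1137. Of these, Irf1 and Patz1 alone were called, and the cause was not tested. Of 1056 list counts by setting 888 were within 1.5 times. Leaving out chromosome 11 and distal 17, a setting added after seeing the data, gave 1683 higher and 1890 lower. With 2 libraries a group, small changes of low genes could not be detected.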
